A study of Mus musculus with 12 samples.

Results

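The 6 libraries described here are the 2-month libraries of a series of 12: 3 from wild-type livers and 3 labelled PPARγ-KO, chosen by the genotype and time in their labels. All came from male PPARγ flox/flox mice that were injected at 8 weeks of age. The PPARγ-KO group received AAV8-TBG-Cre, and littermate controls, which carry the same floxed alleles and are called wild-type, received AAV8-TBG-eGFP. Both groups were then kept for 2 months on a fast-food diet (FFD) rich in saturated fat, cholesterol and sucrose, with fructose and glucose in the drinking water. The TBG promoter is active in hepatocytes, so other liver cells keep their Pparg. Whether each library is 1 animal or a pool is not stated, and p-values measure the spread between these libraries.

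PPARγ is a nuclear receptor best known for fat storage. In liver it is one of a set of receptors that share the partner RXR and that together govern lipid handling, bile acid formation and detoxification. The liver removes foreign compounds in steps: cytochrome P450 and other phase I enzymes add or expose a reactive group, phase II enzymes attach glucuronate, sulfate, glutathione or an amino acid, and transporters carry the product into bile or blood. The same organ makes bile acids from cholesterol, degrades most amino acids and turns their nitrogen into urea. The comparison asks which of these functions, outside the lipid, matrix and inflammation genes, differed between the groups after 2 months.

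Library totals ran from 17384716 to 27452284 counts. Levels are given below as normalized CPM, the counts relative to the library total after TMM scaling. A gene was called when the adjusted p of edgeR's quasi-likelihood test was below 0.05 over all 14573 genes tested, and log2 fold changes are PPARγ-KO over wild-type with the standard error of the fit. Of these genes, 259 were called higher and 260 lower, so that 3.56% were called in all and 1.78% in each direction. All 519 called genes had no overlap between the groups. With the replicate number as a block, 431 were called higher and 386 lower. The labels do not say what a number marks, and the pairing was taken from these same values. Calls that need the block, here and below, are therefore not independent support. Scaled by library size alone, 171 were called higher and 349 lower. Wild-type replicate 1 stood apart from its group: chi-square per gene was 31.68 and 27.61 against the other wild-type libraries and 10.26 between those. Without it, 793 genes were called higher and 784 lower. With any other library left out, 49 to 116 were called higher and 68 to 122 lower. Of the 519 calls, 252 of those higher and 257 of those lower passed without wild-type replicate 1, but without wild-type replicate 2 only 48 and 67 did. Tallies of this kind are therefore given with groups of called genes below. Every count of called genes in a list is to be read against the 1.78% called in each direction over all genes.

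Pparg (chr6:115360951-115490399, mm10), the floxed gene, stood at 39.8, 42.4 and 38.6 CPM in wild-type replicates 1 to 3 and at 51.8, 68.2 and 53.3 CPM in those labelled PPARγ-KO. Reads over the whole gene were thus more numerous in the KO-labelled libraries (log2 fold change 0.52 ± 0.107, adjusted p = 0.0309, edgeR). Counts per gene do not resolve the deleted exons, so the label cannot be checked by them, and the libraries are called KO-labelled throughout. By Western blot the study reported an efficient and lasting loss of PPARγ protein from PPARγ-KO livers at both times. Protein was not analysed here. Of the known PPARγ target genes Cidec, Plin2 and Cd36, which coat lipid droplets or take up fatty acids, Cidec stood at 102, 182 and 176 CPM in wild-type and at 13.8, 7.72 and 10.3 CPM in KO-labelled libraries (-3.85 ± 0.341, adjusted p = 0.0117, or 0.0854 with the replicate block). Plin2 stood at 949, 1240 and 1080 CPM against 698, 596 and 681 CPM (-0.73 ± 0.113, adjusted p = 0.011). Cd36 stood at 280, 381 and 345 CPM against 165, 248 and 162 CPM (adjusted p = 0.0758, or 0.00243 with the block). All 3 genes were thus lower in every KO-labelled library than in any wild-type one. The call of Cidec failed without KO-labelled replicate 3 (0.0644) and that of Plin2 without wild-type replicate 3 (0.0521), while Cd36 passed without KO-labelled replicate 2 (0.00845). The call of Pparg itself passed without wild-type replicate 1 (adjusted p = 0.0312) and failed with each of the other 5 libraries left out, where the adjusted p ran from 0.0574 to 0.117. It also failed by library size alone (0.0729).

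Markers of hepatocytes, among them the albumin gene Alb, were numerous in every library. Their summed level was 65400 to 77700 CPM in wild-type and 84000 to 96200 CPM in KO-labelled libraries, without overlap. The sum is weighted to abundant genes, as a single marker reached 1706265 counts in 1 library. Taken singly, 5 of the 10 markers did not overlap between the groups, beside 12% in each direction over all genes. None of the 10 hepatocyte markers was called, all 10 had a positive log2 fold change and their median was 0.26, against -0.0048 over all genes tested. Summed stellate cell markers moved the other way, from 511 to 586 CPM in wild-type to 412 to 419 CPM in KO-labelled libraries, with a median of -0.30 over 8 genes, of which Dcn fell. In bulk tissue a change in the number of cells of a type and a change in RNA per cell cannot be told apart. The part that these markers play in the results below was not tested, but their median is repeated beside lists that moved by a like amount.

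**Figure D1:**
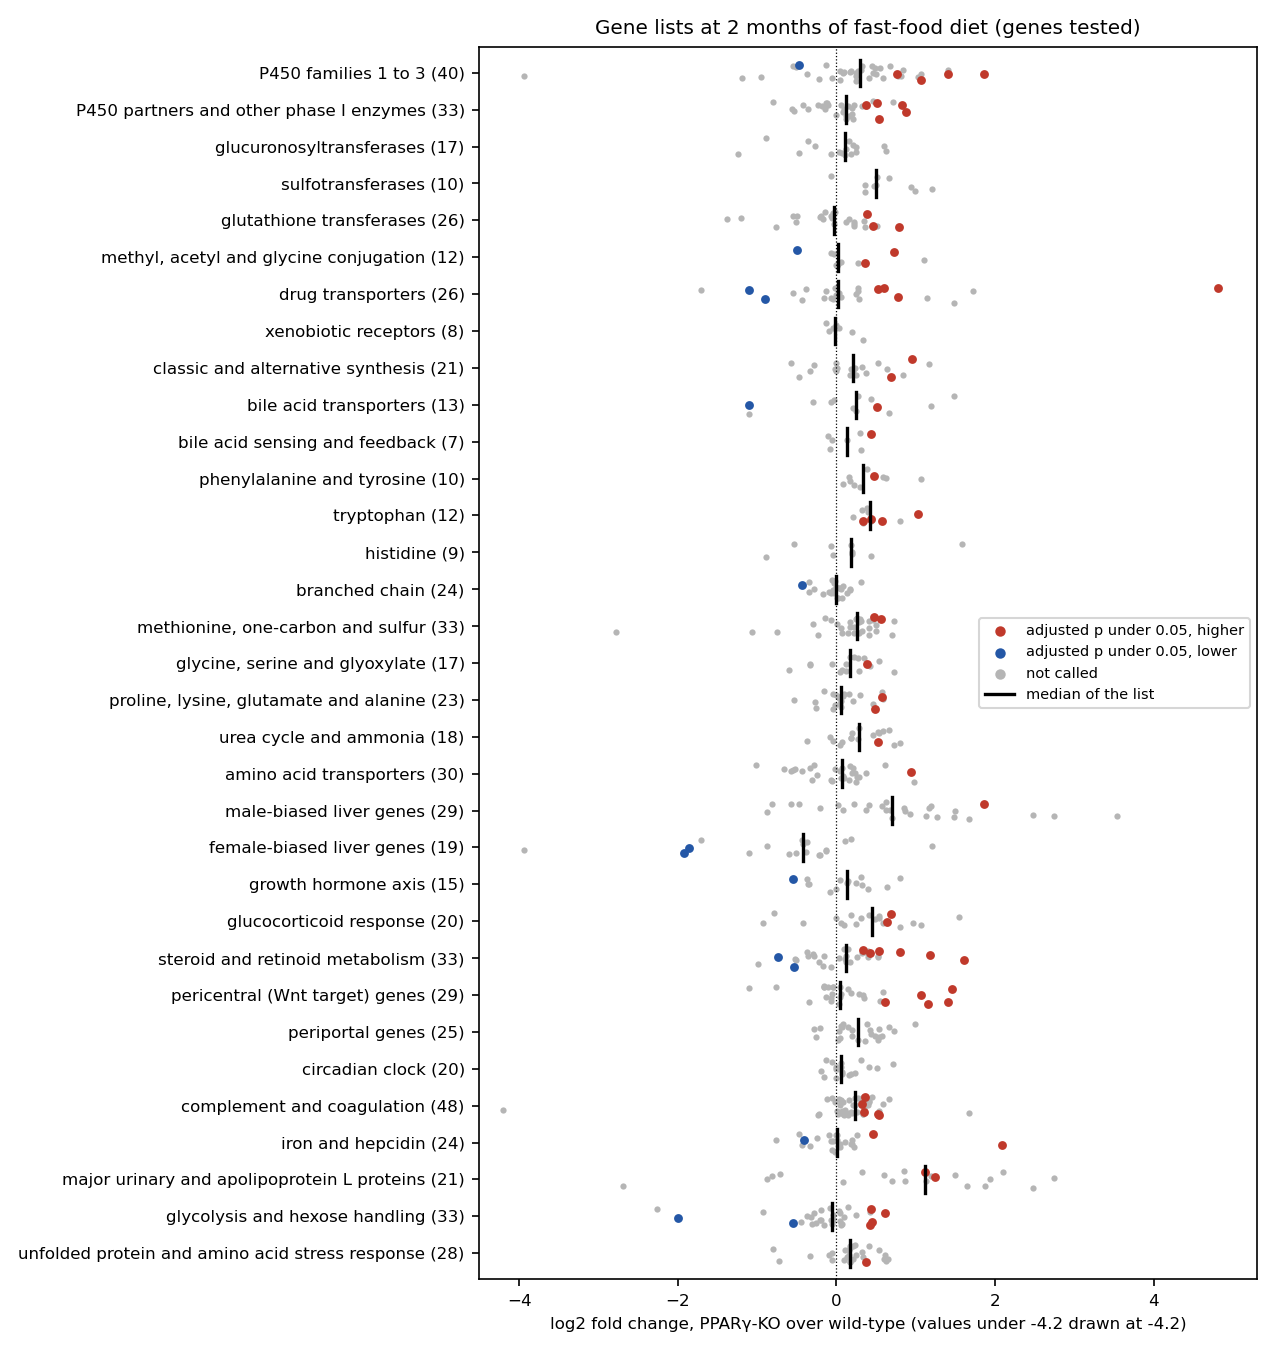
Log2 fold change of every tested gene (points) in 33 gene lists, with the number of genes tested in brackets, called genes in colour, the median of each list as a bar and values beyond the left edge drawn there. Most medians lie between -0.1 and 0.5, while single genes such as Slc15a2 at 4.81 and Hk2 at -2.0 stand far from the median of their list.

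Among drug-metabolizing enzymes, the P450 genes of families 1 to 3 held 4 called higher and 1 called lower of 40 tested, beside 1.78% in each direction over all genes. Cyp1a2 (chr9:57676937-57683703), which oxidizes caffeine and aromatic amines, stood at 224, 152 and 193 CPM in wild-type and at 413, 410 and 369 CPM in KO-labelled libraries. Every KO-labelled library lay above every wild-type one, and the level was about doubled (log2 1.06 ± 0.131, adjusted p = 0.00549). Cyp2c29, an abundant enzyme of the Cyp2c family, rose from 1160, 662 and 775 CPM to 2340, 2640 and 1900 CPM (1.41 ± 0.225, adjusted p = 0.0237). Among called genes outside the lipid, matrix and inflammation lists, it had the largest gain in CPM. Cyp2d40 rose from 82.8, 89.5 and 101 CPM to 170, 159 and 134 CPM (0.76 ± 0.106, adjusted p = 0.00767). Cyp2d12 rose as well, but from a low level of 0.280 to 0.475 CPM to 1.03 to 1.97 CPM (1.85 ± 0.411, adjusted p = 0.0386).

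Cyp3a11, the main mouse enzyme of the family that metabolizes the largest share of drugs, went the other way. It stood at 2520, 2320 and 2580 CPM in wild-type and at 1710, 1930 and 1720 CPM in KO-labelled libraries, a fall of 0.47 ± 0.0938 on the log2 scale (adjusted p = 0.0268). With the replicate block its adjusted p was 0.0523. Over the whole list 30 genes had a positive and 10 a negative log2 fold change, the groups did not overlap for 15 genes higher and 4 lower (12% in each direction over all genes), and the median was 0.29, beside 0.26 for hepatocyte markers. Cyp1a2 and Cyp2d40 passed whichever library was left out. The tally of the 5 P450 calls was 5 without wild-type replicate 1, 2 without wild-type replicate 2 or 3 or KO-labelled replicate 1 or 2, and 3 without KO-labelled replicate 3.

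The most variable P450 was Cyp2a4, an enzyme with higher levels in female liver. It stood at 7.11, 88.6 and 71.2 CPM in wild-type and at 3.08, 6.09 and 2.10 CPM in KO-labelled libraries, and with wild-type replicate 1 near the KO-labelled range it was not called (-3.94 ± 1.17, adjusted p = 0.195). The receptors that induce these enzymes gave no call. Nr1i2 (PXR), Nr1i3 (CAR) and Nfe2l2 (NRF2) had adjusted p values of 0.616 or more. The smallest p was that of Ahr, the dioxin receptor and inducer of Cyp1a2, at 59.7, 58.0 and 69.9 CPM against 74.1, 83.2 and 79.7 CPM (0.34 ± 0.0871, adjusted p = 0.0667, or 0.044 with the replicate block).

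**Figure D2:**
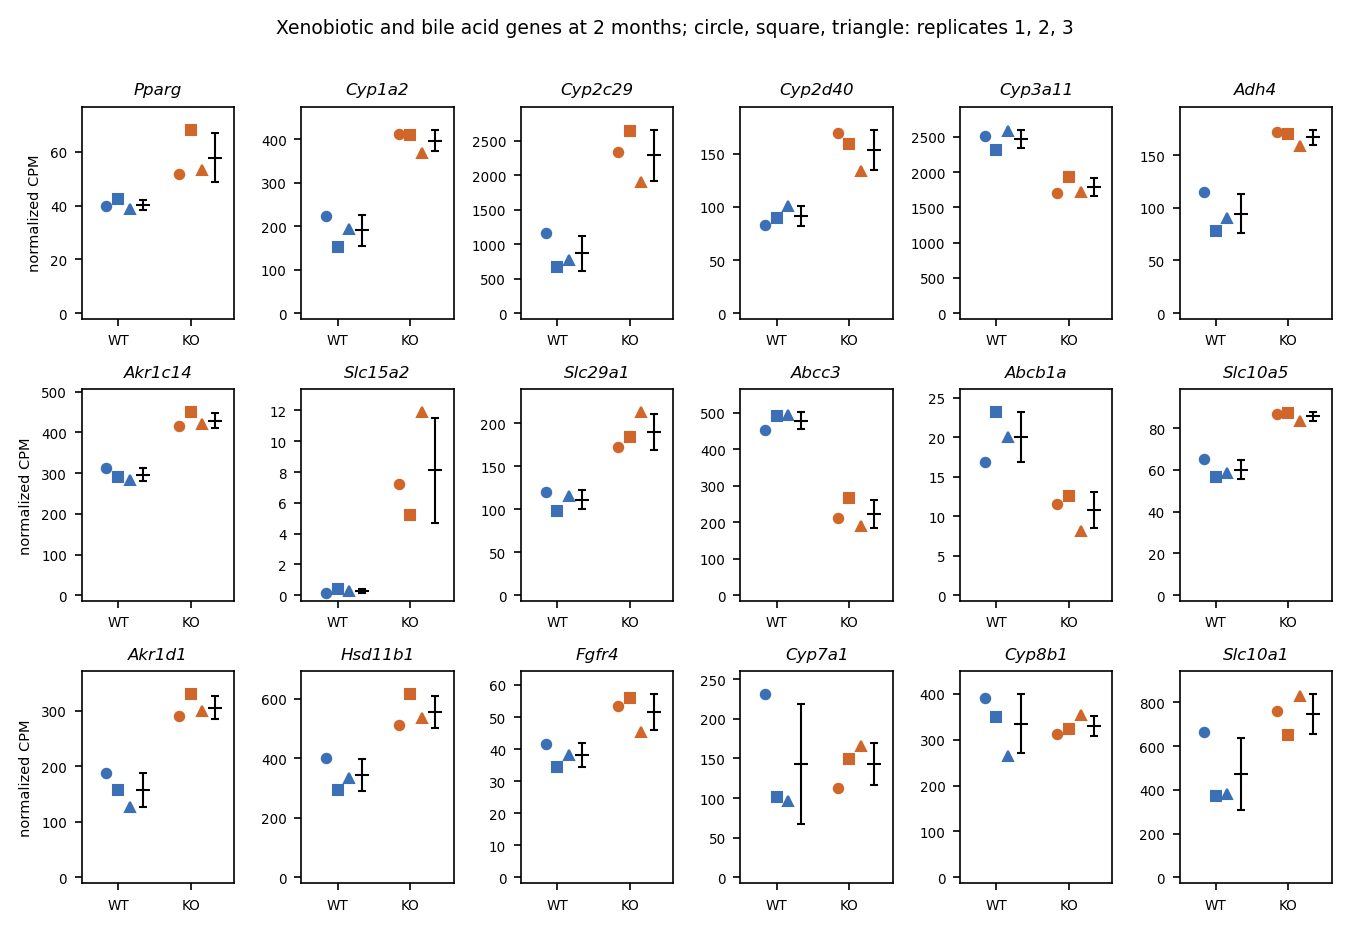
Normalized CPM of Pparg and 17 xenobiotic and bile acid genes in each library, wild-type (WT, blue) and KO-labelled (KO, orange), with mean ± SD in black (n = 3). Slc15a2 is near 0 in wild-type, Abcc3 and Abcb1a are lower in all 3 KO-labelled libraries, and the ranges of Cyp7a1 and Cyp8b1 overlap.

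Other phase I enzymes were called higher in 5 of 33 cases and lower in none, beside 1.78% in each direction over all genes. The class IV alcohol dehydrogenase Adh7 and the class II enzyme Adh4 led the list. Adh4 stood at 115, 78.2 and 90.5 CPM in wild-type and at 172, 170 and 159 CPM in KO-labelled libraries (0.82 ± 0.127, adjusted p = 0.0148), and Adh7 rose by 0.88 ± 0.175 (adjusted p = 0.0408). The aldo-keto reductase Akr1c14, which reduces steroid ketones, stood at 313, 291 and 284 CPM against 416, 450 and 421 CPM (0.53 ± 0.0779, adjusted p = 0.00834). Dpyd, the first enzyme of pyrimidine breakdown, rose by 0.52 ± 0.117 (adjusted p = 0.0418). The fifth gene was Xdh, xanthine oxidoreductase. Of the 5 calls, 4 passed without wild-type replicate 1, where Adh7 failed, and 1 or 2 passed with any other library left out.

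Conjugating enzymes moved little. None of 17 genes of glucuronidation and none of 10 of sulfation was called. By unadjusted p the leading genes were Ugt2a3 (159 to 248 CPM in wild-type and 307 to 309 CPM in KO-labelled libraries, adjusted p = 0.0603, or 0.0199 with the replicate block) and Papss2, which makes the sulfate donor (adjusted p = 0.105). The sulfation genes nonetheless had 9 of 10 log2 fold changes above 0, a median of 0.50 and no overlap for 7 of them (12% in each direction over all genes). Of 26 glutathione genes 3 rose, Gstm5 (0.79 ± 0.171, adjusted p = 0.0362), Gstp3 (0.46 ± 0.107, adjusted p = 0.0466) and the abundant Gsta3 (1290, 1150 and 1240 CPM against 1540, 1660 and 1610 CPM, adjusted p = 0.0408, or 0.0795 with the block), and the median of that list was -0.03. The N-acetyltransferase Nat8 rose by 0.73 ± 0.138 (adjusted p = 0.0223). Acsm3, a mitochondrial medium-chain acyl-CoA synthetase, fell by 0.50 ± 0.0836 (adjusted p = 0.0148). None of these 5 calls passed with every library left out, and without KO-labelled replicate 1 none of the 5 passed.

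Transporters of drugs and metabolites held the largest rise among the called genes ranked outside the lipid, matrix and inflammation lists. Slc15a2 (chr16:36750177-36784962), the high-affinity peptide transporter PEPT2, had 3, 8 and 5 counts in wild-type and 136, 89 and 312 counts in KO-labelled libraries. As levels these are 0.168, 0.422 and 0.260 CPM against 7.23, 5.21 and 11.9 CPM, a 28.1-fold difference (log2 4.81 ± 0.432, adjusted p = 0.00106). It was called in all 12 alternatives in which it could be tested, with an adjusted p of at most 0.0191 when a library was left out. Slc29a1, the nucleoside transporter ENT1, stood at 120, 98.3 and 115 CPM against 172, 184 and 213 CPM (0.77 ± 0.101, adjusted p = 0.00549) and was also called with each library left out. Slco2a1, a prostaglandin transporter, and Slc22a30 rose too.

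Both ABC efflux pumps that were called fell. Abcc3 (MRP3, chr11:94343295-94392997), which exports glucuronides and bile acids into blood, stood at 452, 491 and 495 CPM in wild-type and at 212, 267 and 191 CPM in KO-labelled libraries. It had dropped to less than the lowest wild-type value in all 3 (-1.10 ± 0.12, adjusted p = 0.00245), and it was called with each library left out, with an adjusted p of at most 0.021. Abcb1a, which encodes P-glycoprotein, stood at 16.9, 23.2 and 20 CPM against 11.6, 12.6 and 8.15 CPM (-0.90 ± 0.177, adjusted p = 0.028). Its adjusted p passed only without wild-type replicate 1 (0.00608) or KO-labelled replicate 2 (0.0394) and reached 0.113 without wild-type replicate 2. Over the list 4 of 26 genes were called higher and 2 lower (1.78% in each direction over all genes), and the median was 0.02. All 6 calls passed without wild-type replicate 1 and 3 to 5 with another library left out, the fewest without wild-type replicate 2 or 3. Slc22a27, a female-biased organic anion transporter, was called with the replicate block only (adjusted p = 0.000254, against 0.213 without it).

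Bile acid synthesis starts with Cyp7a1 in the classic route and with Cyp27a1 and Cyp7b1 in the alternative one, and Cyp8b1 directs it to cholic acid. The entry enzyme showed no shift: Cyp7a1 stood at 231, 101 and 96.3 CPM in wild-type and at 113, 149 and 166 CPM in KO-labelled libraries (log2 0.0029 ± 0.421, adjusted p = 0.998). Cyp8b1 ran from 265 to 390 CPM in wild-type and from 312 to 354 CPM in KO-labelled libraries (adjusted p = 0.96). At a standard error of 0.421 a sizeable change of Cyp7a1 would not have been detectable. Cyp7b1, which is also male-biased, stood at 65.7, 25.1 and 40.1 CPM against 111, 70.5 and 111 CPM. It was not called (1.16 ± 0.42, adjusted p = 0.244) unless the replicate block was used (0.02).

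Further along the pathway, Akr1d1 (chr6:37530173-37568815), the 5β-reductase that shapes the steroid ring of bile acids, stood at 188, 158 and 127 CPM in wild-type and at 290, 330 and 299 CPM in KO-labelled libraries. This rise of 0.96 ± 0.133 (adjusted p = 0.00986) passed with each library left out except wild-type replicate 2 (adjusted p = 0.0567). Hsd11b1 was placed on the same list, but it interconverts 11-keto and 11-hydroxy steroids and is best known for activating glucocorticoids. It stood at 401, 295 and 335 CPM against 514, 616 and 536 CPM (0.69 ± 0.121, adjusted p = 0.018). With a library other than wild-type replicate 1 left out, its adjusted p ran from 0.0545 to 0.0784. In all, 2 of the 21 genes on the synthesis list were called higher and none lower, beside 1.78% in each direction over all genes. Hsd11b1 is also counted among the glucocorticoid-responsive genes below, which leaves Akr1d1 as the only call of the synthesis list alone. The median of this list was 0.21. The median of hepatocyte markers was 0.26.

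Of 13 bile acid transporters, Slc10a5 rose and Abcc3 fell. Slc10a5, a relative of the bile acid uptake carrier whose substrates are less well known, stood at 65.3, 56.5 and 58.5 CPM against 86.7, 87.0 and 83.2 CPM (0.51 ± 0.0745, adjusted p = 0.00834) and was called with each library left out. The main uptake carrier Slc10a1 (NTCP) was not called (663, 373 and 379 CPM against 760, 650 and 829 CPM, adjusted p = 0.223). The export pump Abcb11 stood at 519, 384 and 473 CPM against 668, 619 and 577 CPM, with an adjusted p of 0.0696, or 0.0412 with the block. Slc10a2, the sodium-dependent carrier of ileum and bile duct cells, stood at 22.6, 29.1 and 40.8 CPM against 64.5, 63.3 and 84.2 CPM, and the block decided its call too (0.0603 without, 0.000211 with). Among 7 genes of sensing and feedback, Fgfr4, the hepatocyte receptor for the gut hormone FGF15, rose from 41.7, 34.4 and 38.3 CPM to 53.3, 56.1 and 45.2 CPM (0.43 ± 0.102, adjusted p = 0.0489), and passed only without wild-type replicate 1 or KO-labelled replicate 3. Nr1h4 (FXR) and its target Nr0b2 (SHP) were not called, at adjusted p values of 0.63 and 0.96.

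Calls among amino acid genes were nearly all rises in the KO-labelled libraries, and small ones. Over the 176 genes of the 9 amino acid lists, 12 were called higher and 1 lower, or 6.82% and 0.568%, against 1.78% in each direction over all genes. A positive log2 fold change was seen for 124 of them and the median was 0.17, while hepatocyte markers had a median of 0.26. Of the 13 calls, all 13 passed without wild-type replicate 1. With any other library left out 1 to 4 did, the fewest without wild-type replicate 2.

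**Figure D3:**
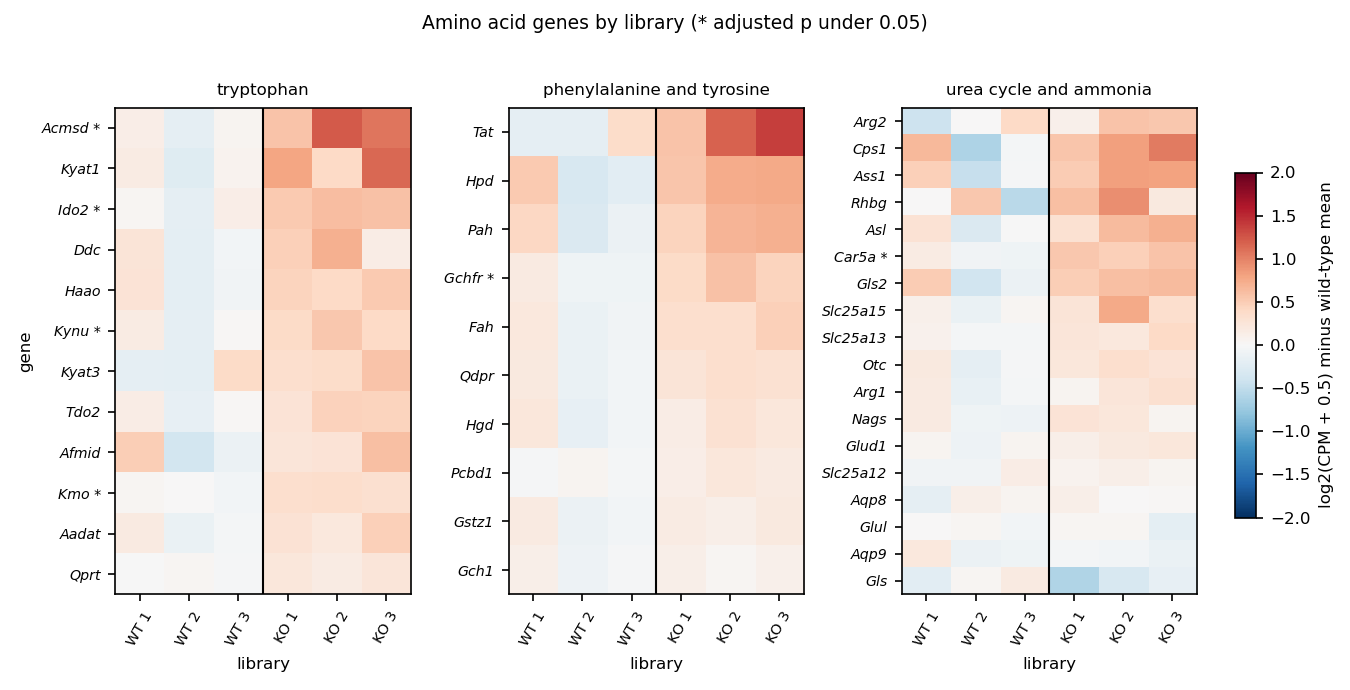
Level of each tested gene of tryptophan, of phenylalanine and tyrosine, and of urea cycle metabolism in each library, as log2(CPM + 0.5) minus the wild-type mean. All 12 tryptophan genes and all 10 phenylalanine and tyrosine genes have a positive fold change, and wild-type replicate 1 lies toward the KO-labelled libraries for many of them.

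The tryptophan list had the largest share of called genes among the 9 amino acid lists. Most tryptophan in liver is opened to kynurenine and then broken down, and a branch of this route yields NAD. Of its 12 genes 4 were called higher, 12 had a positive log2 fold change and 9 did not overlap between the groups, with a median of 0.42. Over all genes 1.78% were called and 12% did not overlap in each direction, and 49.1% had a positive log2 fold change. Of the 10 hepatocyte markers none was called, 10 had a positive log2 fold change and 5 did not overlap, with a median of 0.26. All 4 tryptophan calls passed without wild-type replicate 1, 2 without KO-labelled replicate 1 and 1 with another library left out. Acmsd (chr1:127729413-127767978), which diverts an intermediate away from NAD synthesis, stood at 6.55, 5.17 and 6.15 CPM in wild-type and at 9.03, 14.5 and 13 CPM in KO-labelled libraries (1.03 ± 0.19, adjusted p = 0.0201). Ido2, one of the ring-opening dioxygenases, stood at 71.2, 61.4 and 76.6 CPM against 99.9, 107 and 104 CPM (0.57 ± 0.0871, adjusted p = 0.0105) and was the only one of the 4 called with each library left out. Kynu, kynureninase, rose by 0.44 ± 0.0936 (adjusted p = 0.0335). Kmo, kynurenine 3-monooxygenase, rose by 0.33 ± 0.0712 (adjusted p = 0.0334, or 0.0546 with the block). Tdo2, the main hepatic dioxygenase, was not called (1240, 994 and 1130 CPM against 1350, 1540 and 1520 CPM, adjusted p = 0.076).

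Like the hepatocyte markers, whose median was 0.26, phenylalanine and tyrosine breakdown had 10 of 10 positive log2 fold changes. The median of this list was 0.34, with 1 call. That gene was Gchfr, which restrains synthesis of the cofactor tetrahydrobiopterin (67.2, 55.8 and 56.0 CPM against 78.0, 89.3 and 80.7 CPM, 0.47 ± 0.0916, adjusted p = 0.0248). Tyrosine aminotransferase Tat, a classic glucocorticoid target, stood at 721, 722 and 1060 CPM against 1220, 1860 and 2130 CPM. Its adjusted p was 0.0776, or 0.00243 with the replicate block. Histidine breakdown had no call among 9 genes, and its smallest p was that of the carnosinase Cndp1 (0.336 to 0.833 CPM against 1.18 to 2.05 CPM, adjusted p = 0.0753).

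The branched-chain pathway had the only negative median of the 9 amino acid lists. Its 24 genes split into 11 positive and 13 negative log2 fold changes, and its median was -0.01.

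One-carbon and sulfur metabolism passes methyl groups from serine, glycine and methionine through folate. Here Aldh1l1, which burns off folate-bound carbon, rose from 855, 679 and 655 CPM to 1040, 1110 and 1070 CPM (0.56 ± 0.11, adjusted p = 0.0256). The cytosolic serine hydroxymethyltransferase Shmt1 rose from 178, 175 and 180 CPM to 260, 216 and 259 CPM (0.47 ± 0.0854, adjusted p = 0.0198). These were 2 of 33 genes, of which 26 had a positive log2 fold change, with a median of 0.26, the same as that of hepatocyte markers. With the block 5 of the 33 were called higher and 2 lower. The lower genes were Csad, which makes the taurine precursor hypotaurine (164, 170 and 266 CPM against 83.4, 90.3 and 112 CPM, adjusted p = 0.0643 without the block and 0.00024 with it), and the mitochondrial folate enzyme Mthfd1l (4.76, 9.13 and 12.6 CPM against 0.319, 2.11 and 1.45 CPM, adjusted p = 0.072 and 0.00126).

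In the remaining amino acid lists, Gamt, the last enzyme of creatine synthesis, rose by 0.39 ± 0.0828 (adjusted p = 0.0333). The hydroxyproline dehydrogenase Prodh2 rose by 0.49 ± 0.0804 (adjusted p = 0.0148) and Aspdh, a putative aspartate dehydrogenase, by 0.58 ± 0.118 (adjusted p = 0.0315). Among 18 urea cycle and ammonia genes, whose median was 0.28 beside 0.26 for hepatocyte markers, only Car5a was called, the mitochondrial carbonic anhydrase that supplies bicarbonate to the cycle (52.2, 44.3 and 44.1 CPM against 68.4, 65.0 and 69.4 CPM, 0.53 ± 0.0829, adjusted p = 0.0114). Cps1 and Ass1, the cycle's first mitochondrial and cytosolic enzymes, were not. Cps1 stood at 2560, 1070 and 1600 CPM against 2410, 2900 and 3380 CPM, with a spread that left an adjusted p of 0.33. Of 30 amino acid transporters Slc3a1, a subunit of the cystine and dibasic amino acid carrier, rose from 16.2, 11.3 and 15.5 CPM to 24.2, 24.2 and 33.9 CPM (0.94 ± 0.177, adjusted p = 0.028).

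Male and female mouse livers differ in many genes under the control of growth hormone pulses, and all 6 livers here were male. Of 29 male-biased genes 24 had a positive log2 fold change and the median was 0.70, which became 0.42 without wild-type replicate 2 and 1.16 without KO-labelled replicate 2. Of 19 female-biased genes 16 had a negative one and the median was -0.42, which became -0.23 without KO-labelled replicate 1 and -0.90 without KO-labelled replicate 2. Only 3 genes of the 48 were called, and libraries of the same group differed widely. The male-biased call was Susd4, a complement inhibitor, at 8.79, 7.28 and 7.29 CPM against 35.5, 21.0 and 28.1 CPM (1.86 ± 0.191, adjusted p = 0.00309), and it was called with each library left out. The female-biased calls were Tox, a nuclear protein known from T cells (11.5, 9.13 and 8.12 CPM against 1.33, 3.92 and 2.36 CPM, -1.93 ± 0.329, adjusted p = 0.0207), and the peroxisomal thioesterase Acot3 (30.5, 56.0 and 30.6 CPM against 11.2, 9.30 and 11.7 CPM, -1.86 ± 0.277, adjusted p = 0.0253, or 0.0608 with the block). Tox passed without wild-type replicate 1 or KO-labelled replicate 1 or 2, and Acot3 passed only where a wild-type library was the one left out.

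**Figure D4:**
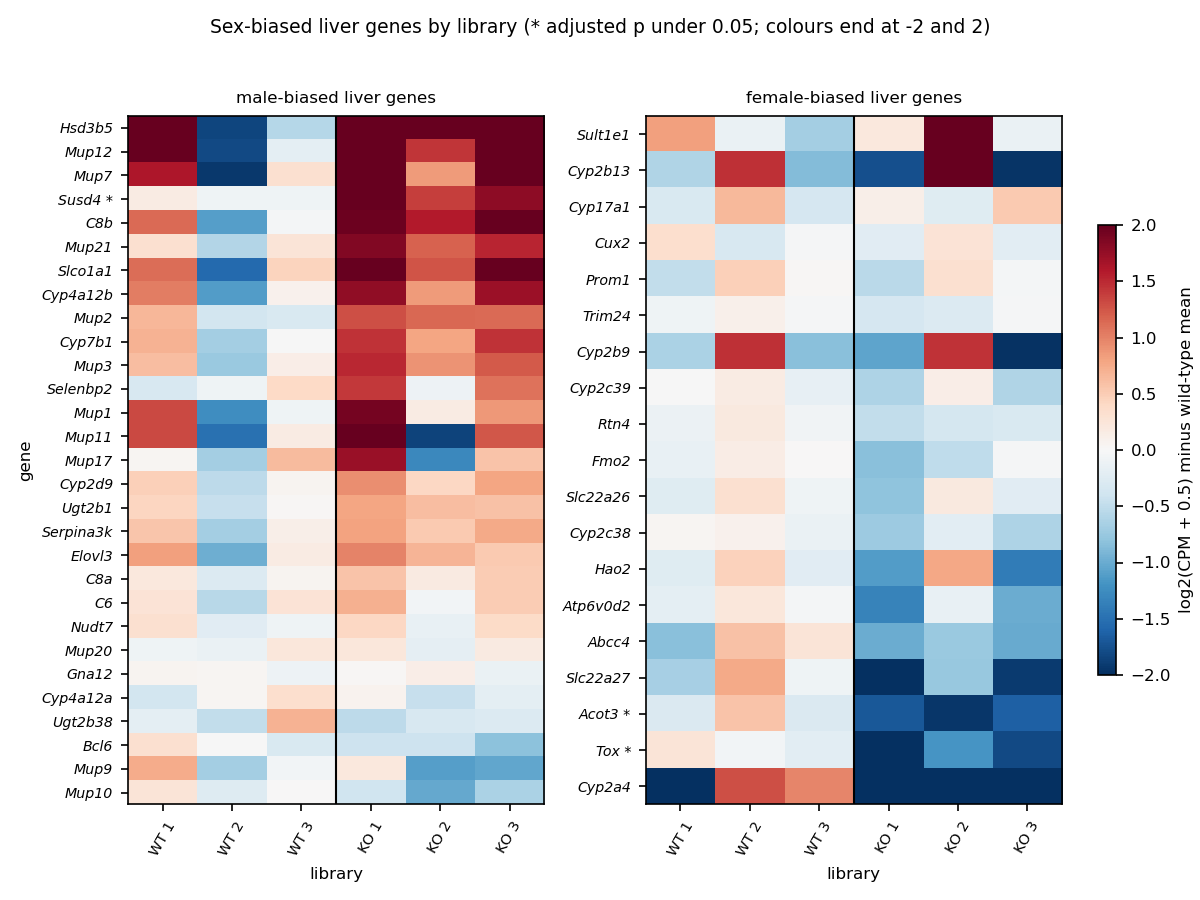
Level of each tested male-biased and female-biased gene in each library, as log2(CPM + 0.5) minus the wild-type mean. Replicate 1 is the highest and replicate 2 the lowest of its group for many male-biased genes in both groups, and female-biased genes show the opposite order.

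Replicates with the same number moved together in these lists. The median of the male-biased genes relative to the wild-type mean was 0.481, -0.581 and 0.062 in wild-type replicates 1 to 3 and 1.288, 0.416 and 0.779 in the KO-labelled ones. With the replicate block 11 male-biased genes were called higher and 1 lower, and 4 female-biased genes were called lower. As the pairing was read from shared movement in these same data, calls that need the block do not test it. The major urinary protein gene Mup7, a pheromone carrier, shows the shared order of replicates. Mup7 stood at 411, 34.7 and 168 CPM in wild-type and at 2250, 242 and 911 CPM in KO-labelled libraries. Its adjusted p was 0.42 without and 5.52e-06 with the block. Over 21 tested major urinary protein and apolipoprotein L genes the median was 1.12, or 0.62 without KO-labelled replicate 1. These urinary protein genes lie in a cluster of near-identical copies, and how reads were divided among them is uncertain. In the growth hormone axis itself 1 of 15 genes was called: Stat5a stood at 22.2, 27.0 and 23.9 CPM against 16.2, 17.0 and 16.7 CPM (-0.55 ± 0.099, adjusted p = 0.0193) and passed only where the library left out was wild-type replicate 1, while Stat5b, the isoform that carries most of the signal in male liver, was not called (adjusted p = 0.12).

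Glucocorticoid-responsive genes had a median of 0.45 over 20 genes, of which 16 had a positive log2 fold change. It became 0.28 without wild-type replicate 2 and 0.23 without KO-labelled replicate 3. Called were Hsd11b1 and Klf15, a transcription factor of amino acid breakdown in fasting, at 169, 128 and 150 CPM against 190, 237 and 268 CPM (0.64 ± 0.14, adjusted p = 0.0482, or 0.0635 with the block). The spread was again wide: the medians relative to wild-type were 0.146, 0.387 and 0.739 in the KO-labelled libraries. Both calls passed without wild-type replicate 1, 1 without KO-labelled replicate 1 and neither with another library left out.

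The list of steroid and retinoid enzymes also includes the thyroid hormone deiodinase Dio1. It held 6 genes called higher and 2 lower of 33, beside 1.78% in each direction over all genes. Rdh16f2, a retinol dehydrogenase of the family that also oxidizes 3α-hydroxysteroids, stood at 23.9, 15.7 and 13.5 CPM against 45.6, 60.3 and 56.1 CPM (1.61 ± 0.222, adjusted p = 0.0188, or 0.0688 with the block). Sdr9c7, a related short-chain dehydrogenase, stood at 35.4, 26.0 and 33.2 CPM against 79.5, 79.7 and 55.8 CPM (1.18 ± 0.171, adjusted p = 0.0178). Cyp26a1, which degrades retinoic acid and is induced by it, stood at 23.2, 22.4 and 22.3 CPM against 41.0, 46.9 and 31.2 CPM (0.81 ± 0.136, adjusted p = 0.0177). Rdh5, Hsd3b3 and Dhrs3 made up the remaining rises. Dio1, the deiodinase that activates thyroid hormone, fell from 182, 199 and 217 CPM to 133, 101 and 126 CPM (-0.74 ± 0.11, adjusted p = 0.0102). Hsd17b12, which the study's pathway results place under both fatty acid and steroid metabolism, fell as well. All 8 calls passed without wild-type replicate 1, 1 without wild-type replicate 2 and 2 to 4 with another library left out.

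Liver enzymes are arranged along the blood flow from portal to central vein. Of 29 pericentral genes 5 were called higher and none lower (1.78% in each direction over all genes), and the median was 0.04. Of the 5 calls, 5 passed without wild-type replicate 1 or KO-labelled replicate 3, 2 without wild-type replicate 2 or KO-labelled replicate 2, and 1 without wild-type replicate 3 or KO-labelled replicate 1. Besides Cyp1a2 and Cyp2c29 these were Avpr1a, the hepatic vasopressin receptor (6.10, 3.11 and 4.43 CPM against 14.5, 11.4 and 11.5 CPM, 1.46 ± 0.225, adjusted p = 0.0117), the G protein subunit gene Gna14 (1.15 ± 0.196, adjusted p = 0.0166) and the Wnt inhibitor Notum. The defining pericentral genes Glul, Cyp2e1 and Axin2 were not called, at adjusted p values of 0.862, 0.81 and 0.931. None of 25 periportal genes was called, although 22 had a positive log2 fold change and their median was 0.27, beside 0.26 for hepatocyte markers. Gldc of the glycine cleavage system had the smallest p (adjusted p = 0.0697, or 0.0335 with the block). None of 20 clock genes was called either, with a median of 0.06 and Nfil3 as the gene of smallest p (adjusted p = 0.0697, or 0.0401 with the block).

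Secreted liver proteins were called higher more than lower. Complement and coagulation factors were called higher in 5 and lower in none of 48 cases, beside 1.78% in each direction over all genes. Of the 48 genes 42 had a positive log2 fold change and the median was 0.23, again near the 0.26 of hepatocyte markers. Of the subunits of the membrane attack complex, C8g stood at 249, 195 and 211 CPM against 311, 324 and 311 CPM (0.53 ± 0.0951, adjusted p = 0.0193) and C9 at 248, 219 and 291 CPM against 372, 368 and 345 CPM (0.52 ± 0.104, adjusted p = 0.0272). The complement inhibitor C4bp rose by 0.36 ± 0.0797 (adjusted p = 0.0401, or 0.0695 with the block), and C1rl and Mbl2 made up the 5. All 5 passed without wild-type replicate 1, only C9 without wild-type replicate 3, and none without wild-type replicate 2 or any KO-labelled library. Among the largest gains in CPM of called genes outside the lipid, matrix and inflammation lists were a pair of genes of plasma proteins. Ahsg, encoding fetuin-A, stood at 3090, 2330 and 2490 CPM against 3900, 3840 and 4220 CPM (0.60 ± 0.119, adjusted p = 0.0261), and Serpina1c, an α1-antitrypsin gene, at 522, 312 and 477 CPM against 937, 848 and 911 CPM (1.04 ± 0.176, adjusted p = 0.0223). The transcripts of Serpina1c share 73.3% of their 50-base words with other Serpina1 genes, so the division of reads among these copies is uncertain.

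Cfd, which encodes complement factor D and is best known from fat cells, was not called. It had 599, 70 and 98 counts in wild-type and 0 in each KO-labelled library. Against a floor of 3 counts per library its mean level of 14.1 CPM was at least 94.2-fold higher in wild-type. This bound rests on wild-type replicate 1, and without it the mean was 4.4 CPM and the bound 29.4-fold. The spread within wild-type left an adjusted p of 0.307, and with the replicate block it was 3.66e-05. The fat cell genes Adipoq and Lep had no count in any library, and the fat cell markers other than Cfd summed to 10.1, 18.4 and 19.0 CPM in wild-type and to 9.83, 11.1 and 11.2 CPM in KO-labelled libraries, with overlap.

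Iron genes gave 2 called rises and 1 called fall among 24, beside 1.78% in each direction over all genes. Hamp2, a paralog of the iron hormone hepcidin, stood at 6.49, 5.59 and 4.58 CPM in wild-type and at 15.4, 28.1 and 27.2 CPM in KO-labelled libraries (2.09 ± 0.256, adjusted p = 0.00991), and passed with each library left out except wild-type replicate 2 (0.066). Hepcidin itself, Hamp, stood at 293, 71.5 and 135 CPM against 141, 165 and 115 CPM and was not called (adjusted p = 0.873). The zinc and iron importer Slc39a14 rose by 0.46 ± 0.0763 (adjusted p = 0.0148). Hp, haptoglobin, fell from 2500, 2750 and 2620 CPM to 1820, 2120 and 1990 CPM (-0.41 ± 0.0946, adjusted p = 0.0469, or 0.0688 with the block). All 3 calls passed without wild-type replicate 1, none without wild-type replicate 2, and 1 or 2 with another library left out.

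Of 33 genes of sugar metabolism 4 were called higher and 2 lower, beside 1.78% in each direction over all genes. A positive log2 fold change was seen for 14 of the 33, and the median was -0.06. Pklr, liver pyruvate kinase, stood at 443, 523 and 584 CPM against 849, 811 and 706 CPM (0.61 ± 0.116, adjusted p = 0.0223). Gckr and the fructose-phosphorylating enzyme gene Khk were called higher too. Hexokinase 2, the insulin-sensitive form of muscle and fat, fell: Hk2 (chr6:82725025-82774454) stood at 5.71, 12.0 and 9.53 CPM against 2.71, 2.11 and 2.02 CPM (-2.0 ± 0.28, adjusted p = 0.00776) and was called with each library left out. The widespread glucose carrier Slc2a1 (GLUT1) fell by 0.55 ± 0.12 (adjusted p = 0.0357). Of the 6 calls, 2 passed by library size alone, all 6 without wild-type replicate 1 and 1 to 3 with another library left out. In the stress response list Atf5 was the 1 gene called of 28 (0.37 ± 0.0757, adjusted p = 0.029).

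Apol9a and Apol9b, a pair of apolipoprotein L genes known to respond to interferon, were the only genes called in their list. Apol9b stood at 49.6, 47.9 and 44.5 CPM in wild-type and at 107, 119 and 112 CPM in KO-labelled libraries (1.25 ± 0.0742, adjusted p = 5.75e-05). Apol9a stood at 26.7, 34.9 and 28.6 CPM against 63.4, 67.4 and 65.2 CPM (1.12 ± 0.0997, adjusted p = 0.0007). Both were called in all 13 alternative fits. Apol9b shares 52.3% of its 50-base transcript words with Apol9a, so reads may have been assigned to either, and the pair is better read as 1 measurement.

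The RefSeq promoters of the pair (GRCm38.p6, 250 bases before to 50 after the start) are shown because they are identical over 278 bases and hold a pair of nuclear receptor half-sites. The half-sites AGGTCA and its reverse complement, in capitals, face away from each other with 1 base between them, 170 and 163 bases before the start of Apol9a and 148 and 141 before that of Apol9b. Apol9a lies on the minus strand (chr15:77411188-77411300) and Apol9b on the plus strand (chr15:77728874-77728986), and both are written 5′ to 3′ on the strand of the gene.
Apol9a: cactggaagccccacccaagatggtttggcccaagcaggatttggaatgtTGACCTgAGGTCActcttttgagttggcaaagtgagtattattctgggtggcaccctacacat
Apol9b: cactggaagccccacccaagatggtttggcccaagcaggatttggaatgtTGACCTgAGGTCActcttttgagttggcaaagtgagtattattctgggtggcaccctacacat
This arrangement, which was noticed in these promoters and then counted, occurred in 5 of 27025 genes of the promoter table and in 3 of the 10590 tested genes with a promoter, the pair included. The element to which PPAR and RXR bind is a direct repeat of the same half-site with 1 base between. Searched as 2 exact copies of AGGTCA on either strand, it occurred in 6 of 10590 tested genes (0.0567%), in none of 201 called higher and in none of 195 called lower. A single half-site lay in 22.9% of the promoters of genes called higher, 16.4% of those called lower and 15.7% of all tested. These letters describe the window only.

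Outside all of these lists, large fold changes included falls of genes expressed at a low level. Gprc5b, an orphan receptor, stood at 3.02, 11.6 and 5.52 CPM against 0.797, 0.351 and 0.648 CPM (-3.46 ± 0.583, adjusted p = 0.0275). Kbtbd11, which is known from fat cell differentiation, stood at 4.14, 9.66 and 9.84 CPM against 0.372, 1.46 and 1.18 CPM (-2.96 ± 0.494, adjusted p = 0.0253). Bhlhb9, a relative of the receptor-sorting GASP proteins, stood at 6.72, 10.4 and 8.12 CPM against 0.956, 1.35 and 1.45 CPM (-2.73 ± 0.243, adjusted p = 0.0007), with the overlapping genes Gprasp1 and Gprasp2 on the same strand. As only called genes without overlap were eligible here, all 3 KO-labelled libraries necessarily lay under every wild-type one.

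**Figure D5:**
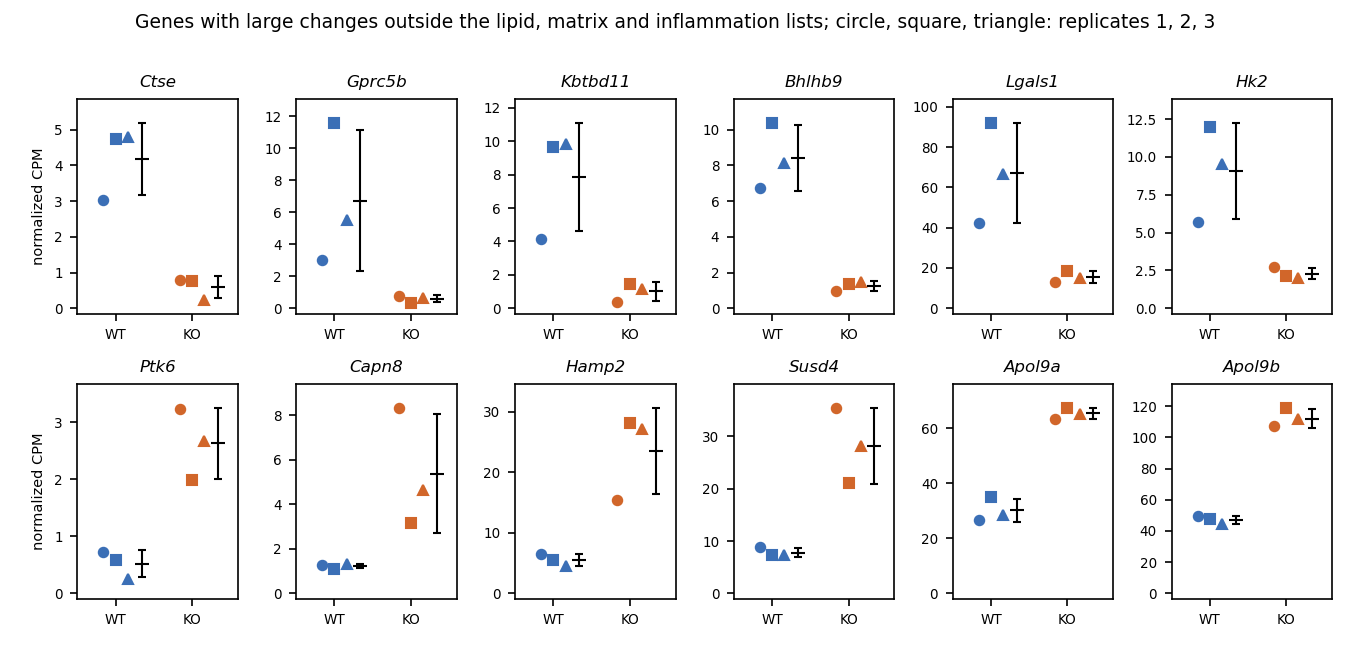
Normalized CPM in each library of 12 genes with large changes outside the lipid, matrix and inflammation lists, with mean ± SD (n = 3). The upper row falls and the lower row rises in KO-labelled libraries. No panel has overlap between the groups, which holds for every called gene.

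Of the 12 largest falls, Lgals1, the carbohydrate-binding protein galectin-1, had the highest level, at 42.4, 92.2 and 66.9 CPM against 13.1, 18.7 and 15.1 CPM (-2.11 ± 0.329, adjusted p = 0.04). The aspartic protease Ctse fell by 2.88 ± 0.404 on the log2 scale (adjusted p = 0.00767), the recombination gene Rad51b by 2.06 ± 0.307 (adjusted p = 0.0144), the acylphosphatase Acyp2 by 2.06 ± 0.277 (adjusted p = 0.00606) and the sulfate transporter Slc13a4 by 2.11 ± 0.408 (adjusted p = 0.0237). Gm31600, Rufy4 and Hk2 were among the 12 as well. With the block all 12 were called. Without wild-type replicate 2 there were 9, and 6 or 7 without wild-type replicate 3 or a KO-labelled library.

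The 12 largest rises were led by Slc15a2. Next came Ptk6, an epithelial tyrosine kinase, at 0.728, 0.580 and 0.260 CPM against 3.24, 1.99 and 2.67 CPM (2.33 ± 0.379, adjusted p = 0.014), and Capn8, a calpain protease known from stomach, at 1.29, 1.11 and 1.3 CPM against 8.34, 3.16 and 4.65 CPM (2.12 ± 0.36, adjusted p = 0.0177). The homeobox gene Irx1 rose by 1.88 ± 0.421 (adjusted p = 0.0405) and Trhde, which inactivates thyrotropin-releasing hormone, by 1.48 ± 0.279 (adjusted p = 0.0236). B430119L08Rik rose from 7.50, 6.44 and 8.02 CPM to 20, 21.7 and 19.2 CPM (1.47 ± 0.12, adjusted p = 0.00058) and lies on the strand opposite to Serpina1c. As the use of strand in counting is not stated, reads of these 2 genes cannot be told apart. Hamp2, Susd4, Cyp2d12, Gm9803, Rdh16f2 and Vmn2r20 complete the list. Of these 12 calls 3 passed without wild-type replicate 2 and 6 to 8 without wild-type replicate 3 or a KO-labelled library.

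By absolute level the 8 largest falls of called genes beyond the lipid, matrix and inflammation lists included Cyp3a11, Hp and Abcc3, described above. Car3, a cytosolic carbonic anhydrase abundant in fat, muscle and male liver, fell from 2740, 2650 and 2400 CPM to 1610, 1930 and 1630 CPM (-0.59 ± 0.104, adjusted p = 0.018). Slc25a10, the mitochondrial dicarboxylate carrier, fell from 430, 517 and 463 CPM to 242, 245 and 246 CPM (-0.94 ± 0.0858, adjusted p = 0.000761), and was called in all 13 alternatives. Pcx, pyruvate carboxylase, fell by 0.37 ± 0.0824 (adjusted p = 0.039, or 0.073 with the block), Entpd5 by 0.57 ± 0.109 (adjusted p = 0.0228) and Aplp2 by 0.52 ± 0.0982 (adjusted p = 0.0217). Among the largest gains, Apoc3, an apolipoprotein of triglyceride-rich particles, rose from 1050, 928 and 991 CPM to 1290, 1380 and 1220 CPM (0.39 ± 0.0902, adjusted p = 0.0469, or 0.0772 with the block). Of the 8 largest gains in CPM, 8 calls passed without wild-type replicate 1 and at most 2 with another library left out. Of the 8 largest losses 8 passed without wild-type replicate 1 and 2 to 4 with another library left out.

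Markers of other cells gave few calls. Of 11 macrophage genes Trem2, a receptor of lipid-associated macrophages, fell from 2.97, 5.22 and 4.53 CPM to 1.22, 1.99 and 1.07 CPM (-1.60 ± 0.308, adjusted p = 0.0237). Ccr2, carried by recruited monocytes, fell from 7.00, 7.07 and 7.81 CPM to 3.03, 3.86 and 2.82 CPM (-1.18 ± 0.182, adjusted p = 0.0107). Timd4, a marker of resident Kupffer cells, rose from 7.45, 6.81 and 5.78 CPM to 13.2, 10.8 and 12.7 CPM (0.87 ± 0.147, adjusted p = 0.0154). These 3 calls passed without wild-type replicate 1 or KO-labelled replicate 2, none passed without wild-type replicate 3 or KO-labelled replicate 1, and Ccr2 alone passed without the remaining ones. The summed macrophage list overlapped, at 513 to 651 CPM in wild-type and 526 to 618 CPM in KO-labelled libraries. Of the 11 macrophage genes 5 had a positive and 6 a negative log2 fold change. Their median was -0.16, which became 0.01 without wild-type replicate 2. Summed cholangiocyte markers were 121 to 203 CPM and 87.4 to 109 CPM, endothelial ones 303 to 376 and 324 to 342 CPM, and B cell ones 25.8 to 38.4 and 30.0 to 86.7 CPM, with no call in any of them. Most members did not follow the first and last of these sums. Of 7 cholangiocyte genes 4 had a positive log2 fold change (median 0.06), and of 6 B cell genes 5 had a negative one (median -0.43). Of the 5 erythroid genes Alas2 was called higher, while the other 4 had a negative log2 fold change. The median of that list was -0.31, and its sum overlapped. Neutrophil and T and NK cell markers summed to at most 4.95 CPM. Of 8 pancreas genes 5 had no count in any library, and 4 of 6 kidney and gut genes, Umod, Slc12a1, Slc34a1 and Lct, had none either.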

How the data were processed

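RNA from liver tissue was sequenced in 12 libraries, of which the 3 wild-type and 3 PPARγ-KO libraries of the 2-month time point were compared, and those of 5 months entered only the test of the difference between times and 1 alternative. Per the labels, groups were set by genotype and time. The authors deposited raw read counts per gene, with no normalization, as 1 table per library, which were joined by gene identifier (54532 genes, of which 26253 had a count in these libraries). HISAT2 and mm10 are named in the submitters' processing notes, whereas the study's methods name STAR. The counting program, annotation and use of strand are not given in the sources used here, so overlapping and antisense genes cannot be separated. In 27 cases a gene name had been stored as a date and was restored through its identifier.

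Counts were tested with edgeR 4.0.16 (R 4.3.3; filterByExpr by group, TMM scaling, robust quasi-likelihood F-test, two-sided, Benjamini-Hochberg over all 14573 genes that passed the filter, adjusted p under 0.05). The code was tested on simulated data. Totals of 17384716 to 27452284 counts limit what can be seen of genes under about 1 CPM. Alternatives were DESeq2 1.42.0 and its size factors, library size alone, other filters and thresholds, a joint fit of all 12 libraries, the omission of each single library, and the replicate number as a block. Same-numbered libraries of the 2 groups deviated together over the 5000 most abundant genes (correlations 0.214, 0.321 and 0.154, against -0.27 to 0.104 for other pairs), so the numbers were taken as pairs. The pairing comes from these values, as the labels do not say what a number marks.

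Gene lists and members were chosen from general knowledge with earlier results of these data known. Named genes were Pparg and up to 4 called genes of each list by fold change or, with no call, the gene of smallest p. To these came the 12 largest rises and falls among called genes with a mean of at least 1 CPM and no overlap between the groups. The 8 largest gains and losses in CPM among called genes were named too. Both of these sets were taken outside the lipid, matrix and inflammation lists. Other genes, such as Cyp7a1, Cyp8b1, Slc10a1, Slc10a2, Abcb11, Cyp7b1, Tat, Tdo2, Cps1, Csad, Mthfd1l, Mup7, Cyp2a4, Slc22a27, Cfd, Cidec, Plin2, Cd36, Hamp, Stat5b, Glul and the receptors, were added after their values were seen, as were the remaining called genes that complete a count. A few genes that the rule names are not reported here.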

Additional observations from a re-analysis of the deposited data

Results flagged for a closer look

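For 8 of the 94 named genes the difference between the groups was not the same at 5 months as at 2 months. The test was the interaction term of an edgeR fit to all 12 libraries (adjusted over 15127 genes). Most named genes were chosen by their 2-month values, which also enter this term. The choice itself thus favours a smaller effect at 5 months, and the share over all genes was not counted. Slc15a2, the peptide transporter, was higher at 2 months by 4.81 on the log2 scale and stood at -0.85 at 5 months, a difference of -5.66 (adjusted p = 0.000854). Slc3a1, a subunit of the cystine carrier, went from 0.94 to -1.09 (difference -2.04, adjusted p = 0.0147), and Serpina1c, an α1-antitrypsin gene, from 1.04 to -0.16 (-1.20, adjusted p = 0.0345). C9, a subunit of the membrane attack complex, went from 0.52 to -0.34 (-0.86, adjusted p = 0.0338) and the stress response factor Atf5 from 0.37 to -0.24 (-0.61, adjusted p = 0.0193). The thioesterase Acot3, lower at 2 months by -1.86, stood at 0.39 at 5 months (2.25, adjusted p = 0.0112), and the glucose carrier Slc2a1 went from -0.55 to 0.08 (0.64, adjusted p = 0.0375). Pparg itself was higher in KO-labelled libraries at both times, by 0.52 and 1.14 (0.62, adjusted p = 0.0432). In the same fit the 5-month effect alone passed for Pparg (adjusted p = 1.45e-05) and Slc3a1 (0.0102). It did not pass for Slc15a2 (0.122), Serpina1c (0.622), C9 (0.1), Atf5 (0.0795), Acot3 (0.436) or Slc2a1 (0.658). Libraries of 2 and 5 months differ in age and time on diet together, which cannot be told apart.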

How the results depend on the processing

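Against 259 genes called higher and 260 lower, library size alone gave 171 and 349, DESeq2 496 and 492, no filter 808 and 754, all 12 libraries in one fit 558 and 595, an adjusted p under 0.1 514 and 549, and an unadjusted p under 0.05 with a 1.3-fold change 663 and 945. The replicate block gave 431 and 386. With 1 library left out the counts ran from 49 to 793 and from 68 to 784, the highest without wild-type replicate 1. The cause was not tested. Pparg kept its direction throughout, but lost its call by library size alone (log2 0.44, adjusted p = 0.0729) and in 5 of 6 fits with 1 library left out (0.38 to 0.59). Of 88 named genes that were called, 71 lost the call in at least 1 alternative, 16 of them by library size alone, 11 with the block and 50 to 59 without any 1 library other than wild-type replicate 1, where 1 did; none lost it with DESeq2 and none changed sign. The block's values stand beside each named result whose call it changed. Medians of the glutathione, conjugation, drug transporter, branched-chain, proline and lysine, amino acid transporter, growth hormone, pericentral, clock, iron, cholangiocyte and Kupffer lists changed sign in 1 to 4 alternatives each. With 3 libraries a group and 1 of them apart from its group, small changes of variable genes were not detectable.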

Other observations

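Gapdh, a gene often used as a reference, stood at 15.3, 160 and 16.9 CPM in wild-type and at 11.5, 13 and 15.4 CPM in KO-labelled libraries. Wild-type replicate 2 was thus far above the other 5 libraries, and the gene was not called (adjusted p = 0.415, edgeR). Sequence that Gapdh shares with other genes was not examined and the counting program is not given, so its absolute level is uncertain. Hsd3b5, a male-specific steroid enzyme, spanned 0.211 to 12.9 CPM within wild-type and 16.6 to 89.8 CPM within KO-labelled libraries, lowest in replicate 2 and highest in replicate 1 of both groups.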
